A study of Mus musculus with 8 samples.

Results

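The histone genes that gave reads in a polyadenylated RNA assay of mouse quadriceps, a thigh muscle, are described here. They were chosen by symbol and by reads. A gene entered when its symbol began with Hist1h, Hist2h, Hist3h, Hist4h, H2af, H3f3 or H1f, when it was no pseudogene, and when it had at least 10 reads summed over all 8 libraries. Of the 54532 genes in the files, 26 met this rule. They are 15 replication-dependent histone genes, 10 genes for histone variants, and H3f3aos, an antisense RNA gene that matches by its letters alone. The read total therefore chose the members, and it is given below as a description.

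The study compared 2 groups of 4 libraries each. The MckCre Gpcpd1 group came from mice with both Gpcpd1 alleles floxed (Gpcpd1 Flox/Flox) that carried MckCre, a Cre recombinase driven by the promoter of muscle creatine kinase, which is active in skeletal and heart muscle fibres. The Control group came from Gpcpd1 Flox/Flox mice without MckCre. All mice were on a chow diet and were 3 months old. Cre and the loss of Gpcpd1 come together in this design, so their effects cannot be told apart. Gpcpd1 encodes an enzyme that splits glycerophosphocholine into choline and glycerol 3-phosphate. The labels give a library per name and do not say which animal each came from, so each p-value reflects library-to-library spread, which may be technical.

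Histones are the proteins around which DNA is wound. The core histones H2A, H2B, H3 and H4 form the nucleosome, and the linker histone H1 binds the DNA where it enters and leaves. Replication-dependent histone genes, which sit in clusters, are expressed mainly when cells copy their DNA. Their mRNAs normally end after a short stem-loop, bound by the protein SLBP, and have no poly(A) tail. Most variant histone genes, among them those for H3.3, H2A.Z and macroH2A, are expressed through the cell cycle from ordinary polyadenylated mRNAs. H2afx, the gene for the variant H2A.X, is grouped with the variants by its symbol, although its annotated 3′ UTR holds a stem-loop. In differentiated cells some replication-dependent genes also yield polyadenylated transcripts that run past the stem-loop. The libraries were made with a kit that primes on poly(A) and reads the 3′ end of each transcript. It is thus not designed to capture an mRNA that stops at the stem-loop. The counts carry no read positions, so where in each gene the reads lay was not analysed here. Whether each read came from a transcript with a poly(A) tail was not tested either.

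The stem-loops are shown because they mark the usual end of a replication-dependent mRNA, and the annotation runs past them in most of the genes that gave reads. Capitals mark the 16 bases of the stem-loop, and lower case marks 5 bases on each side. Each is read 5′ to 3′ on the gene's strand from GENCODE M21 transcripts, and the coordinates are those of the capitals on GRCm38.
Hist1h4i (H4), chr13:22040966-22040981, minus strand: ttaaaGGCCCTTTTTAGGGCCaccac
Hist1h4h (H4), chr13:23531458-23531473, plus strand: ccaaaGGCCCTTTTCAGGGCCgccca
Hist1h2be (H2B), chr13:23585531-23585546, minus strand: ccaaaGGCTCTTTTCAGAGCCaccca
Hist2h3c2 (H3), chr3:96238485-96238500, minus strand: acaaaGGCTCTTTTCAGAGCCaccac
Hist1h1c (H1), chr13:23739512-23739527, plus strand: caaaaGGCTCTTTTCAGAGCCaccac
H2afx (variant H2A.X), chr9:44335240-44335255, plus strand: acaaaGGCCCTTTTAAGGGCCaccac
The histone stem-loop consensus was found in the annotated 3′ UTR of 13 of the 15 replication-dependent members, and not in that of Hist1h2bc or Hist2h2be. The 9 such members that encode H1, H2A, H2B or H3 share the stem-loop printed for Hist1h1c. The 4 H4 members fall into a pair with the stem-loop of Hist1h4i, whose other gene is Hist2h4, and a pair with that of Hist1h4h, whose other gene is Hist1h4d. Among the 10 variant members, H2afx alone held a match. Over all 58797 protein-coding transcripts of the annotation, 74 held one, which is 0.126%, and 25 of those were in genes outside the histone symbols searched.

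The annotated transcripts of the members ran well beyond the stem-loop. In the 13 members with a stem-loop, the longest transcript went on for a median of 840 bases after it, with a range of 46 to 4884 bases, and in 12 of them for at least 100 bases. In Hist1h4i it went on for 330 bases, in Hist2h3c2 for 377 bases, in Hist1h2be for 1861 bases and in Hist1h4h for 46 bases. Of the 52 replication-dependent genes that did not reach 10 reads, 33 held a stem-loop, and their transcripts ended a median of 42 bases after it, with a range of 3 to 2445 bases. In 11 of these 33 genes at least 100 bases were annotated after it. A longer annotation also gives a counter more bases to assign reads to, so the reach of the transcript and the reach of the annotation cannot be told apart. Shared sequence was not searched in the genes under 10 reads, so loss of reads between near-identical copies was not tested either.

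**Figure D1:**
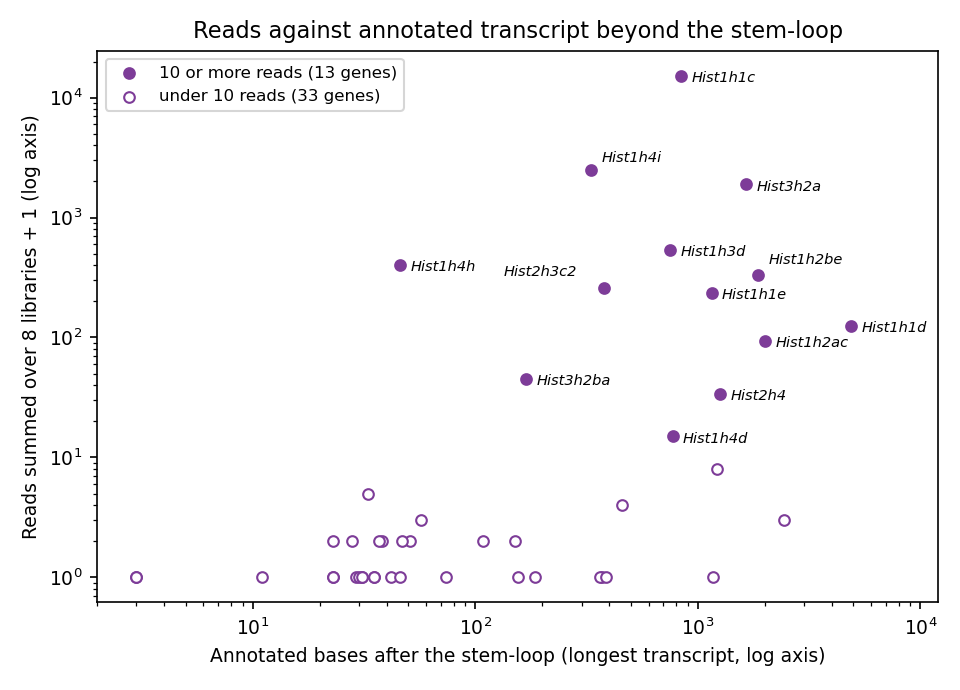
Each point is a replication-dependent histone gene with a stem-loop in its annotated 3′ UTR. The x axis gives the annotated bases after the stem-loop in its longest transcript and the y axis its reads summed over 8 libraries plus 1, both on log axes. The 13 members (filled) lie at a median of 840 bases and the 33 genes under 10 reads (open) at a median of 42 bases.

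A poly(A) signal, AATAAA or ATTAAA read on the gene's own strand, lay in the last 50 annotated bases of 8 of the 15 replication-dependent members and of 9 of the 52 replication-dependent genes under 10 reads. It lay there in 9 of the 10 variant members, H2afy being the exception. Several genes under 10 reads, such as Hist1h2bl and Hist1h2ai, have 0 annotated bases of 3′ UTR. In these the bases searched were coding sequence, so the lower count is in part a matter of annotation. The shortest 3′ UTR among the 15 members was 93 bases, in Hist1h4h. A gene was counted when at least 1 of its protein-coding transcripts held a signal, so genes with several transcripts had more chances. Taken per transcript, 50.2% of all protein-coding transcripts held one there. The signals of genes that passed the genotype test are shown in capitals with 10 bases on each side, on GRCm38, and the coordinates are those of the capitals.
Hist1h4i, chr13:22040651-22040656, minus strand: ttctgtttacATTAAAagtattctat
Hist1h4h, chr13:23531488-23531493, plus strand: acattttcttATTAAAagagcgaaca
Hist1h2be, chr13:23583684-23583689, minus strand: tgtgttccttATTAAAgcattcctga
Hist2h2be, chr3:96223717-96223722, plus strand: tattattattAATAAAgttaccgatt
H3f3b (variant H3.3), chr11:116021999-116022004, minus strand: aggccttacaAATAAActagtaagtt
Hist2h3c2, the sixth gene that passed, had neither hexamer in its last 50 annotated bases. A match is a description of these letters and not a mapped cleavage site.

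The libraries held 4837971, 5405999, 5382896 and 4806806 reads in the MckCre Gpcpd1 group, and 4404116, 5183079, 5112318 and 4601755 reads in the Control group. Gpcpd1 itself had 145, 187, 193 and 181 reads in MckCre Gpcpd1 muscle, against 736, 771, 688 and 711 in Control muscle. Its level averaged 35.1 ± 3.45 CPM in MckCre Gpcpd1 muscle and 149.7 ± 10.7 CPM in Control muscle (SD, n = 4 each). The log2 fold change was -2.09 (SE 0.10, adjusted p = 2.13e-13). CPM are counts scaled to a common library total, here the TMM-scaled total, TMM being edgeR's scaling between libraries. Which exons were floxed is not stated in the labels, so these 3′ reads do not measure the deletion itself. The 15 skeletal muscle fibre genes checked, among them Acta1, Ckm and Myh4, were all detected and summed to 320570 to 331610 CPM in MckCre Gpcpd1 muscle and 283890 to 331890 CPM in Control muscle. Of the 10691 genes tested by edgeR's quasi-likelihood test, 1675 had a Benjamini-Hochberg adjusted p under 0.05, which is 15.7%. Of these, 948 were higher and 727 lower in MckCre Gpcpd1 muscle (829 higher and 901 lower when libraries were scaled by their totals alone).

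Histone genes took a small part of each library. The 25 members that encode histones held 0.0842 to 0.0910% of all reads in MckCre Gpcpd1 libraries and 0.0965 to 0.115% in Control libraries. Of the symbols matched, 91 in all, 8 were pseudogenes and 57 others fell short of 10 reads. Of those 57, 38 had 0 reads in every library and 19 had 1 to 9 reads. The 52 replication-dependent ones among them had 32 reads together over 8 libraries, and the 5 variant ones had 7. Sequence shared with other genes was searched in the members only, and the treatment of multi-mapping reads is not known. Near-identical copies may have lost reads in the counting, so a count under 10 need not mean that RNA was absent. The smallest member was Hist1h4d with 14 reads, and the largest gene outside was Hist1h2bh with 7 reads. Chromosome 13 holds 54 of the 67 replication-dependent genes searched and 10 of the 15 members.

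In this poly(A)-primed assay, the reads of the replication-dependent genes moved in both directions. A single H4 gene, Hist1h4i, fell to 23.4% of its Control level, and the H3 gene Hist2h3c2 fell as well. The H2B genes Hist1h2be and Hist2h2be and another H4 gene, Hist1h4h, rose. The linker gene Hist1h1c, which supplied most of the replication-dependent reads, differed by less than the test could call. Of the 15 genes, 12 had enough reads to be tested and 5 passed, which is 41.7% of those tested against the 15.7% of all genes, with 3 higher (8.87% of all genes were) and 2 lower (6.8% of all genes were). The count of higher genes was not stable: it was 1 without MckCre Gpcpd1 replicate 2, without MckCre Gpcpd1 replicate 4 or without Control replicate 1, 2 in the other fits that left out a library, and 1 with DESeq2. The members were also chosen with earlier results of these data known, so the share that passed is a description. The median log2 fold change of the 12 was 0.07, and that of all genes tested was 0.01. The median size of the log2 fold change, leaving out its sign, was 0.52 for the 12 and 0.20 for all genes tested. In bulk tissue, fewer cells of a kind and less RNA per cell cannot be told apart.

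**Figure D2:**
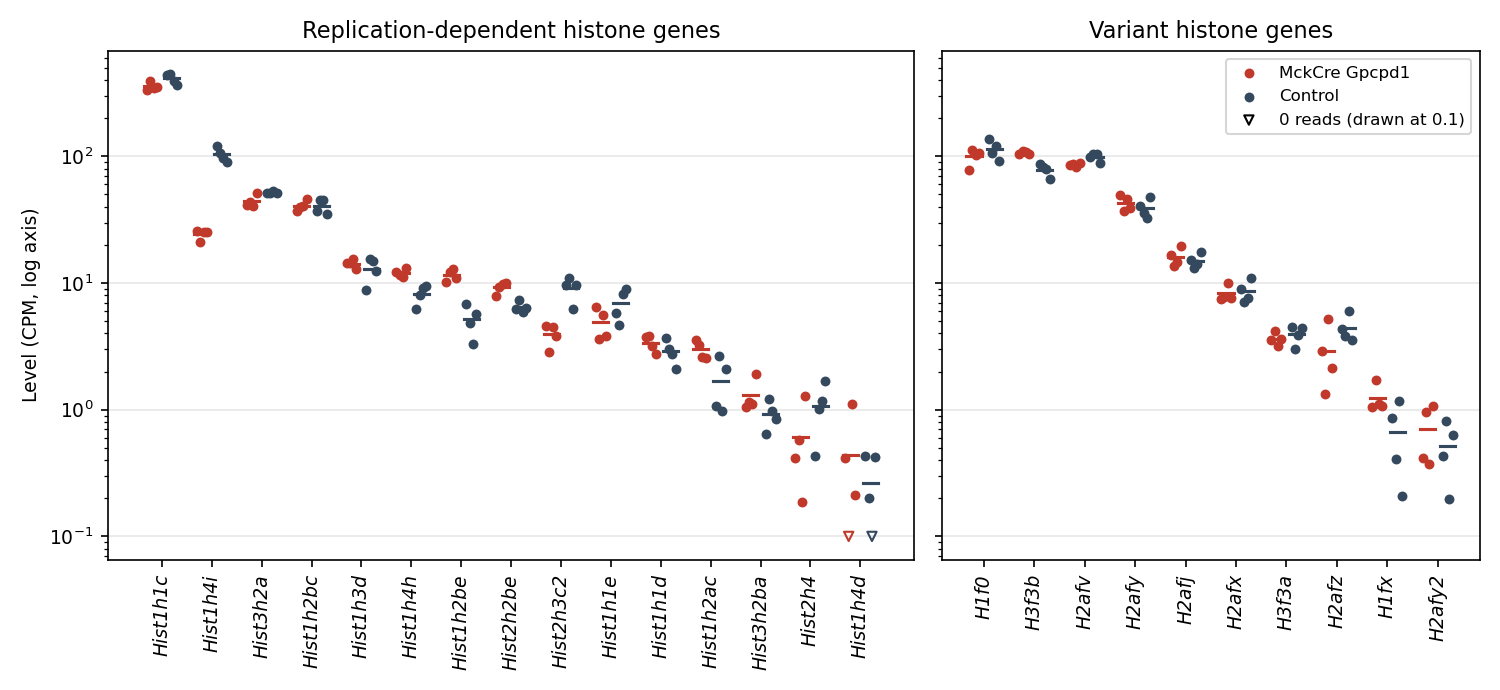
Level of each histone gene in each library, in CPM on a log axis, with MckCre Gpcpd1 libraries left of Control libraries for each gene. Points are libraries, bars are group means of 4 libraries, and triangles drawn at 0.1 are libraries with 0 reads. Hist1h4i lies at 21.01 to 25.6 CPM in MckCre Gpcpd1 muscle and at 90.2 to 120.4 CPM in Control muscle.

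Hist1h4i (ENSMUSG00000060639, chr13:22040636-22041362, minus strand), which encodes histone H4, had 122, 110, 136 and 118 reads in the MckCre Gpcpd1 libraries and 559, 521, 499 and 429 reads in the Control libraries. In CPM these were 25.6, 21.01, 25.3 and 25.2 in MckCre Gpcpd1 muscle and 120.4, 106, 97.7 and 90.2 in Control muscle. Every MckCre Gpcpd1 library was far below every Control library. The means were 24.3 ± 2.17 CPM in MckCre Gpcpd1 muscle and 103.5 ± 12.9 CPM in Control muscle (SD, n = 4 each). The log2 fold change was -2.09 (SE 0.11, adjusted p = 1.36e-12). None of the 50-base words in the last 300 bases of its annotated transcript occurs in another annotated gene. Its annotated 3′ UTR is 376 bases long, so these bases are all UTR and its coding sequence was not searched. The annotated transcript of Hist1h4i is 727 bases long, and its stem-loop begins 31 bases after the stop codon.

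Another H4 gene was higher. Hist1h4h (ENSMUSG00000060981, chr13:23531050-23531519, plus strand) had 12.2, 11.6, 11.1 and 13.2 CPM in MckCre Gpcpd1 muscle, against 6.25, 8.11, 9.20 and 9.46 CPM in Control muscle. The groups did not overlap, and the log2 fold change was 0.54 (SE 0.17, adjusted p = 0.031). This call is weak: it was lost with DESeq2 (adjusted p = 0.0834) and in 5 of the 8 fits that left out a library. Of the 50-base words in the last 300 bases of its transcript, 63.7% occur in 10 other genes. Its annotated 3′ UTR is only 93 bases long, so most of these 300 bases are H4 coding sequence. This share is therefore not comparable with that of Hist1h4i, whose last 300 bases are all UTR. Hist2h4 and Hist1h4d had too few reads to be tested. Hist2h4 had 2, 3, 1 and 6 reads in MckCre Gpcpd1 libraries and 2, 5, 6 and 8 reads in Control libraries. Hist1h4d had 2, 0, 6 and 1 reads in MckCre Gpcpd1 libraries and 2, 1, 0 and 2 reads in Control libraries.

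Hist1h4i made up most of the H4 total. It supplied 63.1 to 67.0% of the replication-dependent H4 reads in MckCre Gpcpd1 libraries and 88.6 to 94.4% in Control libraries. The 4 H4 genes summed to 38.5, 33.2, 37.7 and 39.9 CPM in MckCre Gpcpd1 muscle, and to 127.5, 115, 108 and 102 CPM in Control muscle, a ratio of 0.330. Without Hist1h4i the other H4 genes summed to 12.99, 12.2, 12.4 and 14.7 CPM in MckCre Gpcpd1 muscle and to 7.11, 9.32, 10.4 and 11.6 CPM in Control muscle, a ratio of 1.37. The sum with Hist1h4i and the sum without it thus lay on opposite sides of Control, in both cases with no overlap between the groups. Leaving out Hist1h4i was chosen after seeing the data. The sum without it is nearly all Hist1h4h, so it mainly restates that gene, whose call is weak and whose sequence is shared. On few reads, the mean of Hist2h4 was lower in MckCre Gpcpd1 muscle and that of Hist1h4d was higher. The sum therefore does not show a rise common to the other H4 genes.

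Of the H3 genes, Hist2h3c2 (ENSMUSG00000081058, chr3:96238108-96239127, minus strand) had 22, 15, 24 and 18 reads in MckCre Gpcpd1 libraries and 45, 54, 32 and 46 reads in Control libraries. These were 4.61, 2.86, 4.46 and 3.84 CPM in MckCre Gpcpd1 muscle, and 9.69, 10.9, 6.27 and 9.67 CPM in Control muscle. All MckCre Gpcpd1 libraries were below all Control libraries, with means of 3.94 ± 0.792 CPM in MckCre Gpcpd1 muscle and 9.14 ± 2.01 CPM in Control muscle (SD, n = 4 each). The log2 fold change was -1.21 (SE 0.23, adjusted p = 4.94e-04). Hist1h3d, the other H3 member, had 14.5, 14.3, 15.4 and 12.8 CPM in MckCre Gpcpd1 muscle and 8.83, 15.4, 14.9 and 12.4 CPM in Control muscle. Its groups overlapped, and its log2 fold change was 0.14 (SE 0.16, adjusted p = 0.618).

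Of the H2B genes, Hist1h2be (ENSMUSG00000047246, chr13:23583670-23621124, minus strand) had 49, 64, 70 and 51 reads in MckCre Gpcpd1 libraries and 32, 24, 17 and 27 reads in Control libraries. Its level was 10.3, 12.2, 13.01 and 10.9 CPM in MckCre Gpcpd1 muscle, against 6.89, 4.86, 3.33 and 5.67 CPM in Control muscle. The groups were clear of each other, with a log2 fold change of 1.17 (SE 0.20, adjusted p = 2.05e-04). Hist2h2be (ENSMUSG00000068854, chr3:96221119-96223738, plus strand) had 7.96, 9.36, 9.85 and 10.0 CPM in MckCre Gpcpd1 muscle, against 6.25, 7.30, 5.87 and 6.31 CPM in Control muscle. Its groups did not overlap and its log2 fold change was 0.53 (SE 0.18, adjusted p = 0.0458), but the call was lost in 13 of 18 alternative analyses (adjusted p from 0.0351 to 0.136).

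The other H2B genes gave no call. Hist1h2bc had 36.9, 39.7, 40.7 and 45.9 CPM in MckCre Gpcpd1 muscle and 37.3, 45.6, 45.0 and 35.3 CPM in Control muscle. The groups covered the same range, with a log2 fold change of 0.00 (SE 0.11, adjusted p = 0.991). Hist3h2ba, with 5, 6, 6 and 9 reads in MckCre Gpcpd1 libraries and 3, 6, 5 and 4 reads in Control libraries, was not tested. The 4 H2B genes together summed to 63.0 ± 5.24 CPM in MckCre Gpcpd1 muscle and 53.3 ± 4.75 CPM in Control muscle (SD, n = 4 each), with overlap.

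Hist1h2be lies over another member. The end of the linker gene Hist1h1e falls inside an exon of Hist1h2be on the same strand, and every 50-base word in its last 300 bases is also in the annotation of Hist1h2be. Hist1h1e had 6.49, 3.63, 5.57 and 3.84 CPM in MckCre Gpcpd1 muscle and 5.82, 4.66, 8.22 and 9.04 CPM in Control muscle, and its log2 fold change was -0.51 (SE 0.25, adjusted p = 0.182). How the counting divided reads between the overlapping genes is not stated in the labels. The far end of the longest Hist1h2be transcripts shares no such word with another gene.

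The linker gene Hist1h1c supplied 65.5 to 70.4% of the replication-dependent reads in MckCre Gpcpd1 libraries and 60.6 to 63.1% in Control libraries. Its level was 334, 396, 349 and 351 CPM in MckCre Gpcpd1 muscle and 438, 448, 396 and 364 CPM in Control muscle. The groups overlapped through the lowest Control libraries and the highest MckCre Gpcpd1 library. The log2 fold change was -0.20 (SE 0.09, adjusted p = 0.122), and it passed when libraries were scaled by their totals alone (adjusted p = 0.0405) and without Control replicate 4 (adjusted p = 0.0439). Hist1h1d, the third linker gene, had 13 to 20 reads in MckCre Gpcpd1 libraries and 10 to 17 reads in Control libraries, with a log2 fold change of 0.23 (SE 0.28, adjusted p = 0.635).

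Neither H2A member passed. Hist3h2a had 41.1, 43.5, 40.7 and 50.98 CPM in MckCre Gpcpd1 muscle and 51.04, 51.5, 53.4 and 51.7 CPM in Control muscle. The highest MckCre Gpcpd1 library came just short of the lowest Control library, and the log2 fold change was -0.24 (SE 0.10, adjusted p = 0.106, or 0.0407 without MckCre Gpcpd1 replicate 4). Hist1h2ac had 17, 17, 14 and 12 reads in MckCre Gpcpd1 libraries and 5, 13, 5 and 10 reads in Control libraries, a log2 fold change of 0.81 (SE 0.34, adjusted p = 0.118). Over the 12 replication-dependent genes tested, 6 had groups that did not overlap, where 19.2% of all genes tested did.

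**Figure D3:**
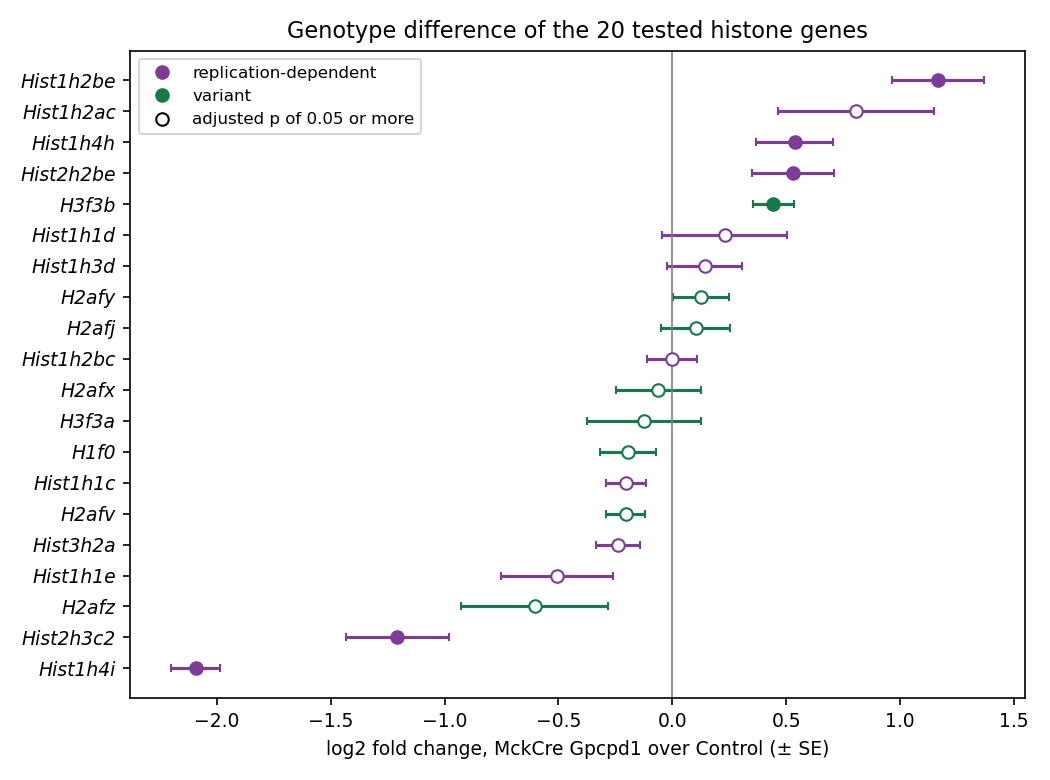
Log2 fold change of MckCre Gpcpd1 over Control for the 20 histone genes tested, with bars of ± SE from edgeR. Filled points passed at an adjusted p under 0.05 and open points did not. The values run from -2.09 for Hist1h4i to 1.17 for Hist1h2be, and the variants (green) lie from -0.60 to 0.44.

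Summed over all 15 genes, replication-dependent reads were lower in MckCre Gpcpd1 muscle. The sums were 503, 564, 523 and 537 CPM in MckCre Gpcpd1 muscle, and 697, 710, 646 and 601 CPM in Control muscle, a ratio of 0.801 with no overlap. Without Hist1h4i the ratio was 0.906 and the groups overlapped. Without Hist1h1c the sums were 167 to 185 CPM in MckCre Gpcpd1 muscle and 237 to 262 CPM in Control muscle, a ratio of 0.690. Replication-dependent genes took 58.3 to 60.0% of all histone reads in MckCre Gpcpd1 libraries and 63.5 to 66.6% in Control libraries. The family sums overlapped between the groups for H1 (ratio 0.868), H2A (ratio 0.878), H2B (ratio 1.18) and H3 (ratio 0.826), and did not for H4.

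**Figure D4:**
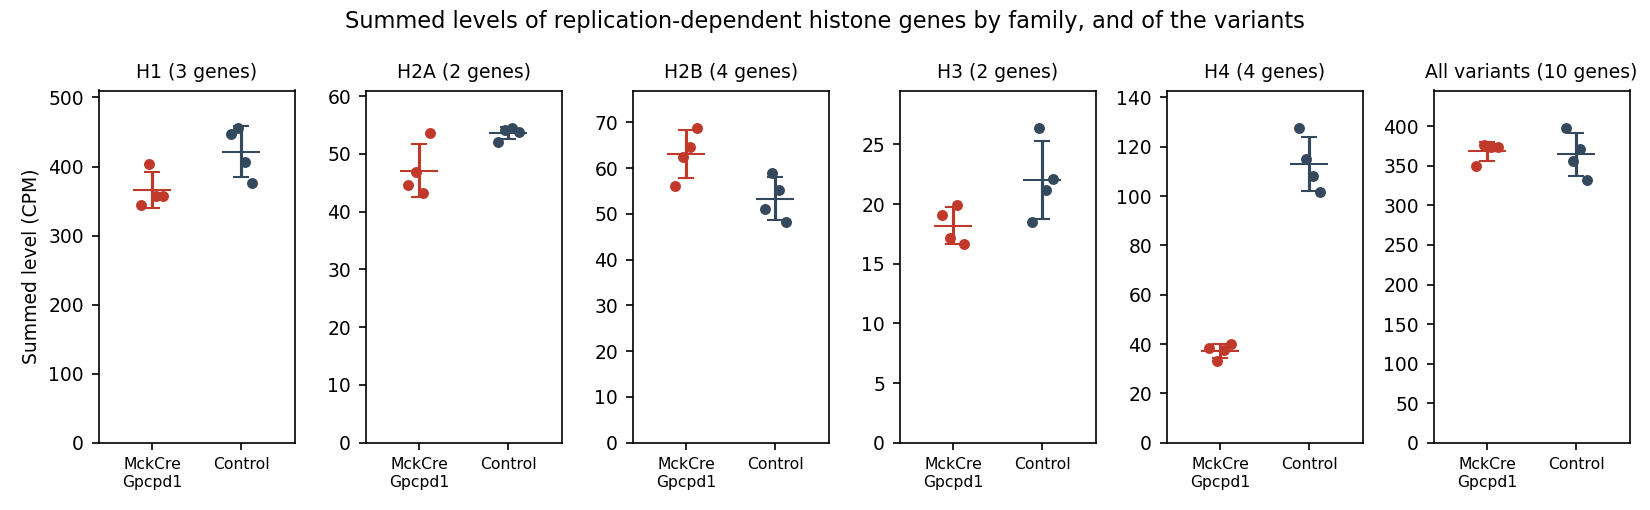
Summed level in CPM of the replication-dependent members of each histone family and of all variant members, MckCre Gpcpd1 left of Control. Points are libraries, and bars are the mean ± SD of 4 libraries. Every axis starts at 0 and each has its own scale. The H4 sum was 37.3 ± 2.89 CPM in MckCre Gpcpd1 muscle and 113 ± 11.0 CPM in Control muscle.

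Of the 10 variant genes, 8 were tested and 1 passed the test, which is 12.5% against the 15.7% of all genes. It was H3f3b, 1 of 2 genes for H3.3, the H3 variant laid down outside DNA replication, and it rose. By edgeR, 0 variants passed as lower, with 1 lower at an unadjusted p under 0.05, and DESeq2 and limma voom also called 0 lower. The median log2 fold change of the 8 was -0.09, and the median size was 0.16. Together the 10 variants summed to 350, 376, 374 and 374 CPM in MckCre Gpcpd1 muscle and to 398, 356, 372 and 332 CPM in Control muscle, with overlap. The ratio was 1.01, and 0.983 when libraries were scaled by their totals alone.

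H3f3b (ENSMUSG00000016559, chr11:116021912-116027962, minus strand) had 500, 572, 581 and 491 reads in MckCre Gpcpd1 libraries and 402, 403, 404 and 316 reads in Control libraries. Its level was 105, 109, 108 and 105 CPM in MckCre Gpcpd1 muscle, against 86.6, 81.7, 79.1 and 66.4 CPM in Control muscle. All MckCre Gpcpd1 libraries were above all Control libraries. The means were 106.7 ± 2.28 CPM in MckCre Gpcpd1 muscle and 78.4 ± 8.60 CPM in Control muscle (SD, n = 4 each). The log2 fold change was 0.44 (SE 0.09, adjusted p = 0.00116). H3f3a, which encodes the same protein, had 3.56, 4.20, 3.16 and 3.63 CPM in MckCre Gpcpd1 muscle and 4.52, 3.04, 3.92 and 4.41 CPM in Control muscle, with a log2 fold change of -0.12 (SE 0.25, adjusted p = 0.796). Several short H3f3a transcripts share end sequence with other genes, so its count is uncertain. Short H3f3b transcripts not annotated as protein-coding do so as well, with 42.6% and 7.57% of their end words shared. The longest transcript of each of these genes shares none. H3f3aos, the antisense gene that overlaps H3f3a on the opposite strand, had 8, 8, 15 and 13 reads in MckCre Gpcpd1 libraries and 4, 8, 10 and 4 reads in Control libraries, and was not tested. Whether the counting used strand is not given, so reads of H3f3a and H3f3aos may be mixed.

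None of the 5 H2A variant genes tested passed. H2afv, a gene for H2A.Z, had 85.7, 87.1, 82.9 and 88.5 CPM in MckCre Gpcpd1 muscle and 98.4, 104, 105 and 89.3 CPM in Control muscle. The groups did not overlap, and the log2 fold change was -0.20 (SE 0.09, adjusted p = 0.112, or 0.0474 with library totals alone). H2afz, the other H2A.Z gene, had 14, 7, 28 and 10 reads in MckCre Gpcpd1 libraries and 20, 19, 31 and 17 reads in Control libraries, a log2 fold change of -0.60 (SE 0.32, adjusted p = 0.229). Its value rests in part on MckCre Gpcpd1 replicate 3, the highest of its group, and without it the log2 fold change was -1.07 (adjusted p = 0.033). Several short H2afz transcripts share their ends with other genes, so its count is uncertain. H2afx, whose H2A.X is phosphorylated at DNA breaks, had 7.54 to 10.0 CPM in MckCre Gpcpd1 muscle and 7.09 to 10.9 CPM in Control muscle, a log2 fold change of -0.06 (SE 0.19, adjusted p = 0.877). H2afy, for macroH2A1, had 36.9 to 49.4 CPM in MckCre Gpcpd1 muscle and 32.9 to 47.5 CPM in Control muscle, a log2 fold change of 0.13 (SE 0.12, adjusted p = 0.541). H2afj had 13.7 to 19.6 CPM in MckCre Gpcpd1 muscle and 13.2 to 17.7 CPM in Control muscle, a log2 fold change of 0.10 (SE 0.15, adjusted p = 0.708).

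H1f0, the linker variant that accumulates in cells that have stopped dividing, had 78.3, 113, 103 and 106 CPM in MckCre Gpcpd1 muscle and 138, 107, 122 and 91.6 CPM in Control muscle. Its groups overlapped, and its log2 fold change was -0.19 (SE 0.12, adjusted p = 0.339). H1fx had 5, 9, 6 and 5 reads in MckCre Gpcpd1 libraries and 4, 2, 6 and 1 reads in Control libraries. H2afy2, for macroH2A2, had 2, 5, 2 and 5 reads in MckCre Gpcpd1 libraries and 2, 4, 1 and 3 reads in Control libraries. Neither had enough reads to be tested. With every gene of at least 1 read kept, the 6 untested members had adjusted p from 0.306 to 0.787.

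For the protein types that 2 genes each supply, the split of reads between the genes was compared by a two-sided exact permutation test of 4 against 4 libraries, whose smallest possible p is 0.0286. H3f3b made up 96.7 ± 0.353% of H3.3 reads in MckCre Gpcpd1 libraries and 95.1 ± 1.08% in Control libraries (SD, n = 4 each), which did not pass (exact p = 0.0571, 0.171 after Benjamini-Hochberg adjustment over 3 pairs). H2afv made up 96.7 ± 1.91% of H2A.Z reads in MckCre Gpcpd1 libraries and 95.7 ± 0.834% in Control libraries (exact p = 0.343, adjusted 0.514). H2afy2 made up 1.71 ± 1.03% of macroH2A reads in MckCre Gpcpd1 libraries and 1.29 ± 0.681% in Control libraries (exact p = 0.514, adjusted 0.514). In each pair the same gene supplied nearly all reads in both groups. Short transcripts of H3f3a, H3f3b and H2afz share end sequence with other genes, and the treatment of multi-mapping reads is not known. The shares of H3f3b and H2afv are therefore uncertain.

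Genes beside the members were looked at within 250 kb. Over all genes tested, 8.87% were higher and 6.8% were lower, and with so few neighbours the values below are a description. Around Hist1h4i, 49 other genes are listed, and together they had 15 reads over 8 libraries, so none was tested. Around Hist1h2be and Hist1h4h, which lie 52151 bases apart, 4 tested genes are not histone genes. Of these, Hfe, whose protein takes part in iron sensing, was higher at 31.5 CPM in MckCre Gpcpd1 muscle and 10.5 CPM in Control muscle (log2 fold change 1.58, SE 0.13, adjusted p = 1.09e-08). Zfp322a, a zinc finger gene, was also higher (log2 fold change 0.43, SE 0.13, adjusted p = 0.0229). Abt1 and Gm46404 did not pass, with log2 fold changes of 0.04 and 0.58 (adjusted p = 0.933 and 0.0607). On chromosome 3, Hist2h2be and Hist2h3c2 lie 14370 bases apart and moved in opposite directions. Of 5 other tested genes around them, Plekho1 was higher (log2 fold change 0.54, adjusted p = 0.00127) and Otud7b, a deubiquitinase gene, was lower (log2 fold change -0.24, adjusted p = 0.0371).

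Few of the factors that make and process histone mRNA passed the test. Of 31 genes for histone transcription, stem-loop recognition and histone mRNA 3′ processing or decay, 29 were tested, 1 was higher and 0 were lower, where 8.87% and 6.8% of all genes were. At an unadjusted p under 0.05, edgeR had 1 lower, and DESeq2 and limma voom called 0 lower. The gene that rose was Snrpd3, an Sm protein of spliceosomal and U7 particles, at 360.2 ± 39.2 CPM in MckCre Gpcpd1 muscle and 251.8 ± 4.68 CPM in Control muscle (log2 fold change 0.52, SE 0.09, adjusted p = 1.30e-04). The list summed to 920.3 to 1011 CPM in MckCre Gpcpd1 muscle and 841 to 855 CPM in Control muscle, with no overlap. Snrpd3 had by far the largest difference in CPM of the list, so the sum mainly follows this gene. The median log2 fold change of the 29 genes tested was -0.02. Slbp, the stem-loop binding protein, had 13, 8, 7 and 14 reads in MckCre Gpcpd1 libraries and 9, 6, 7 and 13 reads in Control libraries. Its groups overlapped (log2 fold change 0.22, SE 0.38, adjusted p = 0.762), and at this depth the SE leaves room for a sizeable difference in either direction. Npat, a coactivator of replication-dependent histone genes, had 29 to 35 reads in MckCre Gpcpd1 libraries and 25 to 38 reads in Control libraries (log2 fold change 0.01, SE 0.21, adjusted p = 0.976).

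Of 25 cleavage and polyadenylation genes, 24 were tested, 1 was higher and 1 was lower, where 8.87% and 6.8% of all genes were, with a median log2 fold change of -0.01. The list summed to 1041 to 1095 CPM in MckCre Gpcpd1 muscle and 1112 to 1199 CPM in Control muscle, with no overlap. Ssu72, a phosphatase that works with the cleavage factors, averaged 33.8 CPM in MckCre Gpcpd1 muscle and 20.8 CPM in Control muscle (log2 fold change 0.69, SE 0.12, adjusted p = 1.49e-04). Pabpc4, a cytoplasmic poly(A)-binding protein, averaged 237 CPM in MckCre Gpcpd1 muscle and 321 CPM in Control muscle (log2 fold change -0.44, SE 0.09, adjusted p = 8.21e-04). Its difference in CPM was by far the largest of the cleavage and polyadenylation list, so that list's sum mainly follows Pabpc4. Of 40 histone chaperone and exchange genes, 30 were tested, 1 was higher and 2 were lower, against the same shares of all genes, with a median of -0.05. The list summed to 1668 to 1719 CPM in MckCre Gpcpd1 muscle and 1723 to 1757 CPM in Control muscle, with no overlap. The largest differences in CPM within this list were in abundant genes that did not pass. Nap1l4 averaged 279 CPM in MckCre Gpcpd1 muscle and 315 CPM in Control muscle, and Ubn1 184 and 209 CPM. Anp32e went the other way, at 202 and 175 CPM. The sum therefore does not show a fall common to the list. Yeats4, a subunit of complexes that exchange H2A.Z, averaged 21.5 CPM in MckCre Gpcpd1 muscle and 30.4 CPM in Control muscle (log2 fold change -0.50, SE 0.12, adjusted p = 0.00679). Ssrp1, of the FACT chaperone, had a log2 fold change of -0.29 (SE 0.09, adjusted p = 0.0311, lost in 4 of 18 alternatives with p up to 0.126), and Ipo4, an importin for H3 and H4, one of 0.26 (SE 0.09, adjusted p = 0.0459, lost in 14 of 18 alternatives).

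Many genes of S phase and cell division had too few reads to be tested. Of 35, 12 were tested, 0 were higher and 1 was lower, where 8.87% and 6.8% of all genes were. By edgeR 0 were higher at an unadjusted p under 0.05 as well, and DESeq2 and limma voom called 0 higher. Tpx2, a spindle assembly factor, had 5, 11, 8 and 11 reads in MckCre Gpcpd1 libraries and 22, 33, 28 and 24 reads in Control libraries (log2 fold change -1.64, SE 0.28, adjusted p = 2.14e-04). Among the untested genes, Tyms, for thymidylate synthase, had 12, 4, 8 and 12 reads in MckCre Gpcpd1 libraries and 3, 3, 2 and 2 reads in Control libraries. Mcm6, for a subunit of the replicative helicase, had 7, 11, 6 and 15 reads in MckCre Gpcpd1 libraries and 4, 4, 3 and 3 reads in Control libraries. Both were named after their values were seen, their groups did not overlap, and with a filter of 10 reads over all libraries both passed as higher (log2 fold change 1.74 and 1.39, SE 0.52 and 0.47, adjusted p = 0.0209 and 0.045). Mki67, the proliferation marker, had 0, 2, 2 and 0 reads in MckCre Gpcpd1 libraries and 1, 3, 2 and 0 reads in Control libraries, and 3 reads correspond to 0.557 to 0.646 CPM here. Top2a had 8, 7, 4 and 3 reads in MckCre Gpcpd1 libraries and 0, 3, 11 and 9 reads in Control libraries. The whole list summed to 78.7 to 89.9 CPM in MckCre Gpcpd1 muscle and 85.2 to 93.9 CPM in Control muscle.

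Markers of other cell types moved in part with genotype. Of all genes tested, 8.87% were higher and 6.8% lower. Of 15 muscle fibre genes 3 were higher and 1 lower, with 4 higher by DESeq2 and 6 by limma voom. Of 12 fibroblast markers 2 were lower, with sums of 981 to 1308 CPM in MckCre Gpcpd1 muscle and 1251 to 1531 CPM in Control muscle. Of 11 macrophage markers 8 were tested and 3 were lower, with sums of 68.5 to 115 CPM in MckCre Gpcpd1 muscle and 97.6 to 160 CPM in Control muscle. The lists for satellite cells, endothelium, lymphocytes, red cells, neutrophils, fat cells, Schwann cells and smooth muscle, 8 in all with 45 tested genes, had 0 calls by edgeR, DESeq2 or limma voom, with 1 gene higher and 1 lower by edgeR at an unadjusted p under 0.05. Lymphocyte markers summed to 0.640 to 3.16 CPM in MckCre Gpcpd1 muscle and 0.587 to 2.10 CPM in Control muscle, with Cd79a at 0 reads in all libraries. Of 10 neutrophil markers, 6 were at 0 reads in all libraries (Ly6g, Mpo, Elane, Retnlg, Camp and Ltf). The part of these markers in the histone results was not tested.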

How the data were processed

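The deposited values were raw read counts per Ensembl gene, 1 file per library, from QuantSeq 3′ mRNA libraries of total RNA, per the labels' protocols. Per the submitters' processing notes, the tools were Bowtie2 2.3.4.1, Subread 1.6.2 and featureCounts and the builds GRCm38 and mm10. Annotation release, strand setting and treatment of multi-mapping reads were not given in the sources used here. Gene symbols and transcripts came from GENCODE M21 (GRCm38), which matched 54409 of 54532 IDs. Counts were filtered with filterByExpr (minimum count 10, minimum total 15), scaled by TMM and tested with edgeR 4.0.16 in R 4.3.3 (robust quasi-likelihood F test, 4 MckCre Gpcpd1 against 4 Control libraries, no covariate, Benjamini-Hochberg adjustment over 10691 genes, threshold 0.05). SE is the log2 fold change over the root of F. CPM used TMM-scaled totals of tested genes, which held over 99% of each library's reads. Replicate numbers follow accession order. Library pairs differed beyond sampling noise (chi-square per degree of freedom 2.33 to 7.96 within a genotype, 10.8 to 18.7 between), so none was the same library deposited again; whether libraries share an animal or RNA is not known from this. The floor of 3 reads covers counting error only, whereas SD and SE include the spread between libraries.

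The members and lists were chosen with earlier results of these data known. Named were Gpcpd1, the histone members, up to 4 called genes per companion list, Slbp, Npat, Mki67, Top2a, and tested neighbours within 250 kb. Alternatives were DESeq2 1.42.0, limma voom 3.58.1, other scalings and filters, library number as covariate, and leaving out each library.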

Additional observations from a re-analysis of the deposited data

Results flagged for a closer look

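In 56 groups of 4 libraries, 4 values stood far from the others of their group by Dixon's test at the 95% level, where chance gives about 1 in 20. All 4 were in the MckCre Gpcpd1 group. Hist1h4i was at 21.01 CPM in 1 library, and the next was 25.2 CPM. Hist3h2ba was at 1.92 CPM in 1 library, and the next was 1.15 CPM. H2afx was at 10.0 CPM in 1 library, and the next was 7.83 CPM. H1fx was at 1.72 CPM in 1 library, and the next was 1.11 CPM.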

How the results depend on the processing

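The calls of Hist1h4i, Hist2h3c2, Hist1h2be, H3f3b and Gpcpd1 held in all 18 alternatives, whereas Hist1h4h (lost in 7, adjusted p 0.0253 to 0.109) and Hist2h2be (lost in 13) did not. No paired analysis was possible because the labels give the groups no shared replicate numbers. Replication-dependent genes called higher were 1 with DESeq2 and 1 without a filter (1 to 2 leaving out a library), and 2 to 3 were lower leaving out a library. The summed ratio was 0.690 without Hist1h1c and 0.906 without Hist1h4i, a setting chosen after seeing the data. With library totals alone 1 variant was lower (0 to 1 leaving out a library). Processing genes called higher were 1 to 2 leaving out a library. Cleavage and polyadenylation genes called higher were 3 with a filter of 5 CPM and 2 with library number as covariate (1 to 3 leaving out a library), and lower 2 with DESeq2, without robust estimation, without a filter and with library number as covariate (1 to 3 leaving out a library). Chaperone genes called higher were 0 with DESeq2, RLE, library totals, upper quartile, a filter of 10 reads, no filter and library number as covariate (0 to 1 leaving out a library), and lower 1 to 2 leaving out a library. S phase genes called higher were 2 with a filter of 10 reads (Tyms and Mcm6) and 1 without a filter (Tyms). Those called lower were 0 with a filter of 5 CPM, which removed Tpx2 from testing (1 to 2 leaving out a library). The causes of the other changes were not tested. Uncalled log2 fold changes that changed sign were all small. Hist1h2bc was at 0.00064 with limma voom and ran from -0.073 to 0.043 leaving out a library. H2afj ran from -0.013 to 0.185 and H2afx from -0.171 to 0.064 leaving out a library. Npat was at -0.021 with library totals, -0.00049 with upper quartile, -0.0051 with a filter of 10 reads and -0.0037 without a filter, and ran from -0.103 to 0.121 leaving out a library. Other scalings moved the median of all genes by at most 0.037 in size (log2). Over all genes, 720 to 967 were higher and 578 to 761 lower leaving out a library. The depth of 4404116 to 5405999 reads per library left 6 of the 26 members untested.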
